A study of Mus musculus with 12 samples.

Results

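The 7 troponin genes described here are Tnnt1, Tnnt2 and Tnnt3 (slow, cardiac and fast troponin T), Tnni1 and Tnni2 (slow and fast troponin I), and Tnnc1 and Tnnc2 (troponin C of slow and cardiac muscle, and of fast muscle). They were taken by symbol from a table of 22607 genes, all 7 were present, and all 7 were among the 16007 genes tested. The RNA came from tibialis anterior, a shin muscle made mostly of fast fibres, of C57BL/6 male mice aged 13 weeks. Every muscle had been transduced. The vector carried Crtc2, which works with Creb1 as a coactivator, or was an empty one with GFP. Fed mice ate ad libitum, and the others had 3 rounds of alternate day fasting (ADF). This made 4 groups of 3 libraries, named below by diet and vector: fed GFP and ADF GFP, and fed Crtc2 and ADF Crtc2. The labels give neither the kind of vector nor its promoter. They do not say whether a GFP and a Crtc2 muscle came from the same mouse, or whether the libraries of a group are separate mice. The spread behind each p-value is thus that among libraries, and may be technical.

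Troponin is the calcium switch of the thin filament. Troponin C binds calcium, troponin I holds the actin and myosin interaction off at rest, and troponin T ties the complex to tropomyosin. Slow and fast fibres use different genes for each subunit. Of the cardiac genes Tnnt2 (troponin T) and Tnni3 (troponin I), Tnnt2 is also known from embryonic and regenerating skeletal muscle. The design compares the diets under each vector, the vectors under each diet, and the effect of Crtc2 in one diet with that in the other.

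The libraries held 24232450 to 34610417 counts each, and the 7 troponin genes together took 3.01 to 6.1% of them. Skeletal myofibre markers were abundant in every library, with a summed level of 85260 to 163607 CPM (counts per 1000000, scaled by the trimmed mean of M values, the unit of all levels below). Of 7 cardiac muscle markers 5 were in the table, and they summed to 0.0543 to 18.7 CPM. Crtc2 itself checked the labels: it was at 58.2 to 77.9 CPM in fed Crtc2 and 17.3 to 29.2 in fed GFP muscle, and at 31.4 to 42.8 in ADF Crtc2 and 16.1 to 23.6 in ADF GFP muscle, without overlap. Averaged over diets, its log2 difference was 1.23 ± 0.20 (SE, as for every log2 difference below; edgeR's quasi-likelihood test, adjusted p = 0.00578). From 68.9 to 74.7% of the counts from 2 to 21 in a library were even numbers; how read pairs were counted is not given in the sources used here. The first fed GFP library stood apart for Tnnt1, Tnnc1 and Tnnt2, as their values below show. Of 14 other slow fibre genes it was the highest of the 3 fed GFP libraries for 5, among them Myh7, the slow myosin heavy chain (28.0 CPM against 7.14 and 7.75), and the lowest for 4. The 14 summed to 1772 CPM there against 1917 and 2501, of which Fhl1 alone was 967.5 against 1282 and 1675. This library also had the highest sum for embryonic and denervation genes (4370 CPM against 2435 and 2643). The same held for cardiac muscle (18.7 against 1.33 and 1.82), Schwann cell (166 against 18.2 and 56.5) and T cell markers (56.8 against 18.5 and 18.1). It lay in the middle for macrophage markers (413 against 460 and 391) and was lowest for satellite cell markers (16.9 against 25.1 and 28.1).

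Fast troponin transcripts outnumbered slow ones by far. Per kilobase of annotated exon, the mean over the 12 libraries was 18186 CPM for Tnnt3 and 9132 for Tnni2, against 21.3 for Tnnt1, 10.8 for Tnni1, 14.9 for Tnnc1 and 3.64 for Tnnt2. By mean count Tnnt3 ranked 3 and Tnni2 ranked 11 among all genes. The slow and cardiac genes together made up 0.0312 to 0.385% of troponin T in a library, and Tnni1 made up 0.0328 to 0.307% of troponin I. Fast troponin C, at 672 CPM per kilobase, lay far below its fast partners. Its level is uncertain, because 592 of its 800 exon bases (74%) lie within exons of Ube2c, a ubiquitin conjugating enzyme of mitosis on the opposite strand, and the strand setting of the counting is not given in the sources used here. The other 6 genes shared 0 exon bases with another gene. Divided by its unshared length, Tnnc2 would be at 2585 CPM per kilobase. The slow share was larger for this subunit: Tnnc1 made up 0.058 to 7.27% of troponin C in a library. Its mean was 2.19%, or 0.586% with the unshared length of Tnnc2. Ube2c was itself at 0 to 29.1 CPM, against 402 to 686 for Tnnc2.

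**Figure D1:**
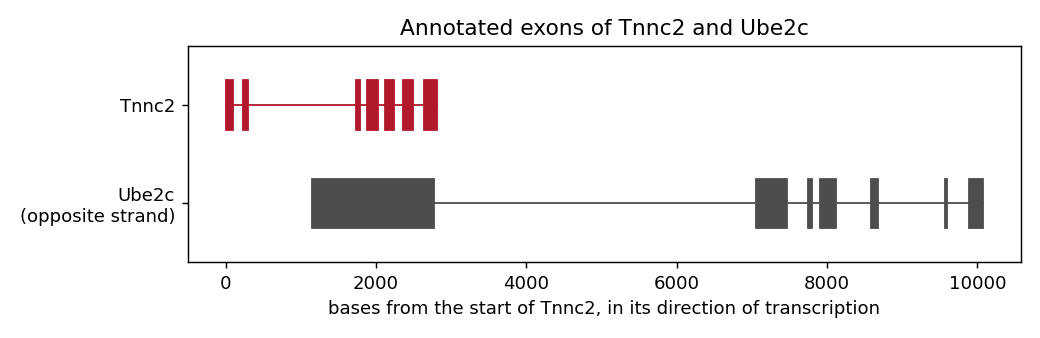
Annotated exons (boxes) of Tnnc2 and of Ube2c on the opposite strand, by distance in bases from the start of Tnnc2 in its direction of transcription. One long Ube2c exon lies over the last 5 of 7 Tnnc2 exons, 592 of 800 bases in all.

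The genes lie in pairs, as is known for this family. On GRCm38, in GENCODE mouse release 21, Tnni1 (chromosome 1, 135779434 to 135810989) is followed after 25.36 kb by Tnnt2 (135836354 to 135852260). On chromosome 7, Tnni2 (142441808 to 142444410) is followed after 54.42 kb by Tnnt3 (142498836 to 142516009), and Tnnt1 (4504570 to 4516382) lies 1.92 kb from Tnni3 on the same strand. Tnnc1 is on chromosome 14 (31208312 to 31211729) and Tnnc2 on chromosome 2 (164777161 to 164779967). The 4 scarce genes gave the results below, so the 250 bases before the start of each are shown, from RefSeq on GRCm38.p6, 5′ to 3′ on the gene's strand. For Tnni1 and Tnnt2 RefSeq has 2 starts in this table, and the upstream one is shown. The RefSeq starts of Tnni1 and Tnnt1 lie inside the GENCODE spans given above. Their windows are thus not the bases before the outermost annotated start. Capitals mark every match, on either strand, to the motifs searched. These were the full cyclic AMP response element TGACGTCA (CRE), and TGACG, the shorter form that lies within it. The E box was searched as CANNTG. The MCAT motif was searched with the letters CATTCC, and a TATA box by the letters TATAAA, besides the MEF2 and CArG motifs by name.
Tnnt1 (chr7:4515976-4516225, minus strand): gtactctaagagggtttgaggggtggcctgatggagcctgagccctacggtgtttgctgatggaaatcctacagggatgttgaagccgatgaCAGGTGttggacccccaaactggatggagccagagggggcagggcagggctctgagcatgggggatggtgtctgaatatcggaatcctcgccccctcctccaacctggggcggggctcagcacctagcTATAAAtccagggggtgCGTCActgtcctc
Tnni1 (chr1:135799171-135799420, plus strand): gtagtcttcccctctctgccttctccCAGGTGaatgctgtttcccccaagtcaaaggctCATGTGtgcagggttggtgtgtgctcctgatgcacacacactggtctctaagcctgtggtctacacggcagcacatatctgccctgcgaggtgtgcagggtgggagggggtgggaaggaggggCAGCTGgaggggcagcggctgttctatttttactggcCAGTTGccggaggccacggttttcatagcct
Tnnc1 (chr14:31208062-31208311, plus strand): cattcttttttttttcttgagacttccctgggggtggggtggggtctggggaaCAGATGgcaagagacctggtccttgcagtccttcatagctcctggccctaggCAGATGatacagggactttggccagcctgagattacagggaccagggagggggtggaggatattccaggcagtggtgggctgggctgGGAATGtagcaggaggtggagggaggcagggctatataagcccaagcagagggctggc
Tnnt2 (chr1:135836084-135836333, plus strand): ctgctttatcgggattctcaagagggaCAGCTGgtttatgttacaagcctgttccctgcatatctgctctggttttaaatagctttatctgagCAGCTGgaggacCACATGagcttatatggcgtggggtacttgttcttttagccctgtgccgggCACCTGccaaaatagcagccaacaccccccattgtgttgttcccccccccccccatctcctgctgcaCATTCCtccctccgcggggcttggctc

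A promoter was listed for 5 of the 7 genes, and not for Tnnt3 and Tnni2. None of these 4 windows held the full CRE, which 1.55% of the 32851 promoters of this length held. The Tnnt1 window held the shorter CRE form, as CGTCA from 13 to 9 bases before the start, and TATAAA from 30 to 25 bases before it; 17.8% and 12.4% of all promoters held these. Each of the 4 windows held an E box, the motif bound by MyoD family factors (66.2% of all promoters): 4 in Tnni1, 4 in Tnnt2, 2 in Tnnc1 and 1 in Tnnt1. The MCAT motif, bound by TEAD factors, stood in Tnnc1 and Tnnt2 (12.6% of all promoters). No match to MEF2 (2.92%) or CArG (1.47%) was found. These are letters in a window, and no binding was measured.

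Tnnt1, slow troponin T, was lowest in muscle that had both Crtc2 and fasting. It was at 159, 47.7 and 54.0 CPM in fed GFP, 57.0, 64.2 and 36.1 in fed Crtc2, 40.1, 34.9 and 34.8 in ADF GFP, and 12.4, 8.33 and 13.9 in ADF Crtc2 muscle. The ADF Crtc2 libraries lay below the other 9, while fed Crtc2 overlapped both GFP groups. Fasting lowered Tnnt1 4.54-fold in Crtc2 muscle, from 52.4 ± 14.6 to 11.6 ± 2.87 CPM (SD, n = 3), a log2 difference of -2.18 ± 0.38 with an adjusted p of 0.000744. It was the 1 troponin gene of 7 past the threshold of 0.05 there. Of all genes 11% passed it, 6.3% higher and 4.68% lower. This call held in each of the 12 fits that left out 1 library, with adjusted p from 1.99e-05 to 0.00681.

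In GFP muscle Tnnt1 also fell with fasting, by 1.25 ± 0.37 on the log2 scale (adjusted p = 0.0469), from 86.9 ± 62.5 to 36.6 ± 3.02 CPM, and was again the 1 troponin gene called of 7 (of all genes 7.12% were called, 4.06% higher and 3.06% lower). That call rested on the first fed GFP library: without it the difference was -0.47 and the adjusted p 0.454. It also ended in 8 of the other 11 such fits, namely without any one ADF library or without the first or the second fed Crtc2 library. With the diets compared over both vectors, Tnnt1 was 3.28-fold lower under ADF (-1.72 ± 0.27, adjusted p = 0.000113). The averaged comparisons reuse the libraries of the others and are no independent evidence.

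Crtc2 lowered Tnnt1 under ADF, 3.17-fold (-1.66 ± 0.38, adjusted p = 0.0454). It was 1 of 2 troponin genes called there, both lower, among 0.725% of all genes called (0.075% higher, 0.65% lower). The call ended without any one of the 6 ADF libraries, and without the first or the second fed Crtc2 library, with adjusted p up to 0.186. With a trend on gene length removed the difference was -1.68 and the adjusted p 0.0522. In fed muscle the difference was -0.73 ± 0.37 (adjusted p = 0.877), and 0.0454 without the first fed GFP library. The test of whether the response to Crtc2 differed between diets gave -0.94 ± 0.52 for Tnnt1 (adjusted p = 0.697), so a difference was not shown. Without the first fed GFP library it gave -1.71 (adjusted p = 0.266). Crtc2 itself was at a mean of 67 CPM in fed Crtc2 and 38.3 in ADF Crtc2 muscle. In comparisons of the diets with this vector, its level and the diet thus cannot be told apart.

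Tnni1, slow troponin I, differed more between vectors than between diets on average. The 2 differences were not tested against each other. It was at 73.1, 64.2 and 56.7 CPM in fed GFP and 45.1, 34.4 and 62.1 in ADF GFP muscle, and at 43.4, 26.7 and 17.0 in fed Crtc2 and 12.01, 19 and 13.5 in ADF Crtc2 muscle. Within each diet the vectors did not overlap, while within each vector the diets did. With so few libraries a group this is weak evidence, and the share of all genes separating so is not given here. Under ADF, Crtc2 lowered it 3.18-fold, from 47.2 ± 14.0 to 14.8 ± 3.68 CPM (-1.67 ± 0.33, adjusted p = 0.0153). That call ended without the third ADF GFP library (adjusted p = 0.137) and without the first (0.122) or the third (0.0761) ADF Crtc2 library. In fed muscle the difference was -1.16 ± 0.32 with an adjusted p of 0.877. Averaged over diets Tnni1 was 2.66-fold lower with Crtc2 (-1.41 ± 0.23, adjusted p = 0.00593), and this call held in all 12 fits that left out 1 library (adjusted p 0.002 to 0.0221).

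For fasting, Tnni1 differed by -0.97 ± 0.32 in Crtc2 muscle (adjusted p = 0.0588) and by -0.45 ± 0.32 in GFP muscle (0.488). The diets averaged over vectors gave -0.71 ± 0.23 (adjusted p = 0.0319). The call ended in 6 of the 12 fits without 1 library: the first or the second ADF GFP, the first or the third ADF Crtc2, the first fed GFP or the first fed Crtc2.

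Tnnc1, troponin C of slow and cardiac muscle, was highest in fed GFP muscle. It was at 60.1, 20.6 and 26.4 CPM there, 12.7, 13.8 and 10.6 in fed Crtc2, 10.2, 8.82 and 10.1 in ADF GFP, and 8.51, 3.79 and 0.498 in ADF Crtc2 muscle. The lowest of these values rested on 14 counts. None of the 4 pairs of groups compared overlapped, but separation of 3 from 3 libraries is weak evidence, and the share of all genes separating so is not given here. In none of those pairs did Tnnc1 pass the threshold: the diets differed by -1.88 ± 0.64 in GFP (adjusted p = 0.0885) and -1.54 ± 0.64 in Crtc2 muscle (0.142), and the vectors by -1.53 ± 0.63 when fed (0.877) and -1.19 ± 0.63 under ADF (0.483). These values moved with single libraries. Without the third ADF Crtc2 library, fasting in Crtc2 muscle gave -1.01 and Crtc2 under ADF -0.66, and without the first ADF Crtc2 library they gave -2.53 (adjusted p = 0.0221) and -2.19. Without the first fed GFP library, fasting in GFP muscle gave -1.27 and Crtc2 in fed muscle -0.92. Fasting in GFP muscle passed the threshold, at -1.87, without the first (adjusted p = 0.0401) or the third (0.0137) ADF Crtc2 library. Averaged over vectors, ADF lowered it 3.26-fold (-1.71 ± 0.45, adjusted p = 0.0113), with all 6 ADF libraries below all 6 fed ones. The call held in all 12 fits without 1 library. The vectors averaged over diets gave -1.36 ± 0.45 (adjusted p = 0.26).

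Tnnt2, cardiac troponin T, was lower in Crtc2 than in GFP muscle of either diet. Its values were 74.3, 37.5 and 42.3 CPM in fed GFP and 12.2, 24.5 and 17.7 in fed Crtc2 muscle, and 27.7, 19.01 and 42.6 in ADF GFP and 14.8, 16.5 and 9.64 in ADF Crtc2 muscle. The vectors did not overlap within a diet, and the diets overlapped within a vector, which is again weak evidence with so few libraries a group. The log2 difference was -1.501 ± 0.37 in fed (adjusted p = 0.719) and -1.13 ± 0.37 in ADF muscle (0.216). Averaged over diets it was -1.31 ± 0.26, a 2.48-fold lower level (adjusted p = 0.0207). That call ended in 5 of 12 fits without 1 library: the third ADF GFP (adjusted p = 0.0879), the first or the third ADF Crtc2, the first fed GFP (0.0664) or the first fed Crtc2. Tnni3, cardiac troponin I, was at 9.45, 0.374 and 0.943 CPM in fed GFP muscle, 0, 0.495 and 2.00 in fed Crtc2, 0, 0.448 and 0 in ADF GFP, and 0 in each ADF Crtc2 library. Averaged over vectors it was called lower under ADF (adjusted p = 0.0469), with its highest value, 9.45 CPM, in the first fed GFP library. That call ended in 8 of 12 fits without 1 library, with an adjusted p of 0.154 without the first fed GFP library. A count of 0 allows up to 3 counts, or 0.0813 to 0.13 CPM. The vectors averaged over diets thus called 3 troponin genes lower, Tnni1, Tnnt2 and Tnnt1 (-1.20 ± 0.26, adjusted p = 0.0447), where 0.494% of all genes were called, 0.025% higher and 0.469% lower. The Tnnt1 call ended in 10 of the 12 fits without 1 library, all but those without the second or the third fed GFP library. Without the first fed GFP library only Tnni1 of the 7 was called.

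**Figure D2:**
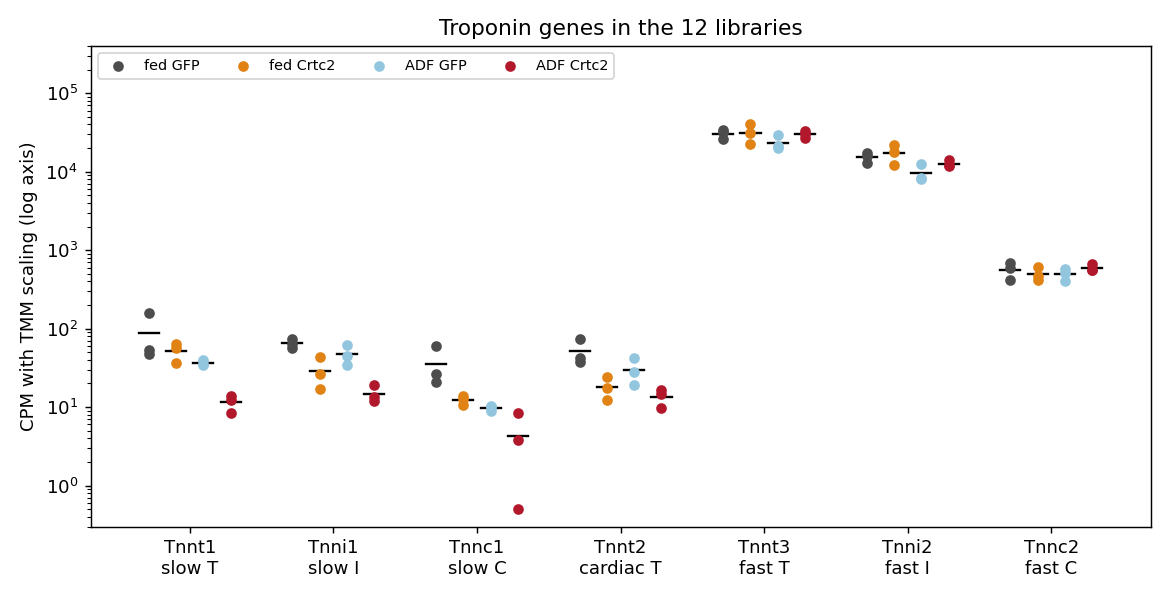
Level of each troponin gene in the 12 libraries (points, coloured by group, with short bars at the mean of 3), in CPM on a log axis. Tnnt1 in ADF Crtc2 muscle (8.33 to 13.9 CPM) lies below every other library, and the 3 fast genes lie above 400 CPM throughout.

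The fast genes differed less between groups. Tnnt3 was at 33460, 32351 and 26069 CPM in fed GFP, 31105, 22691 and 39971 in fed Crtc2, 29552, 19771 and 20957 in ADF GFP, and 32525, 29992 and 27008 in ADF Crtc2 muscle, with overlap in every pair of groups compared. Its log2 differences were between -0.39 ± 0.20 (ADF GFP against fed GFP, adjusted p = 0.294) and 0.35 ± 0.20 (ADF Crtc2 against ADF GFP, 0.528), and 0 of the 7 comparisons called it. With library totals fasting called it lower in GFP muscle (-0.50, adjusted p = 0.023) and averaged over vectors (-0.42, 0.00296). Tnni2 was at 17038, 15619 and 12941 CPM in fed GFP, 17606, 12156 and 21545 in fed Crtc2, 12535, 8112 and 8392 in ADF GFP, and 14041, 12219 and 11837 in ADF Crtc2 muscle. In GFP muscle its diets did not overlap, at -0.65 ± 0.21 (adjusted p = 0.0594). That value passed the threshold with other scalings (0.0418 with DESeq2's size factors, 0.00153 with library totals). It did not pass with a length trend removed (-0.51, adjusted p = 0.153) or with the 2 groups fitted alone (0.0965). In Crtc2 muscle the diets overlapped (-0.43 ± 0.21, adjusted p = 0.201). Averaged over vectors, ADF lowered Tnni2 1.45-fold (-0.54 ± 0.15, adjusted p = 0.0112), a call that held in all 12 fits without 1 library.

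Fasting averaged over vectors thus called 4 of 7 troponin genes, Tnnt1, Tnnc1, Tnni1 and Tnni2, all lower. Of all genes 18% were called, 9.38% higher and 8.64% lower. With library totals 6 of the 7 were called, Tnnt2 (adjusted p = 0.0483) and Tnnt3 besides, and with a filter at a mean of 10 CPM 5, with Tnnt2 (0.0483). Tnnc2 was at 402 to 686 CPM with overlap between all groups, and its log2 differences of -0.18 to 0.25 in the 4 pairs of groups had adjusted p from 0.513 to 1; under scaling by library totals its difference in Crtc2 muscle between diets turned from 0.25 to -0.02. Crtc2 in fed muscle called 0 of 7 troponin genes and 0% of all genes with edgeR. At an unadjusted p below 0.05 it had 871 genes (5.44%), and DESeq2 called 64 genes. The interaction of diet and vector called 0 of 7 and 0% of all genes with edgeR, where 1240 genes (7.75%) had an unadjusted p below 0.05 and DESeq2 called 111. DESeq2 called 0 of the 7 troponin genes in either.

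**Figure D3:**
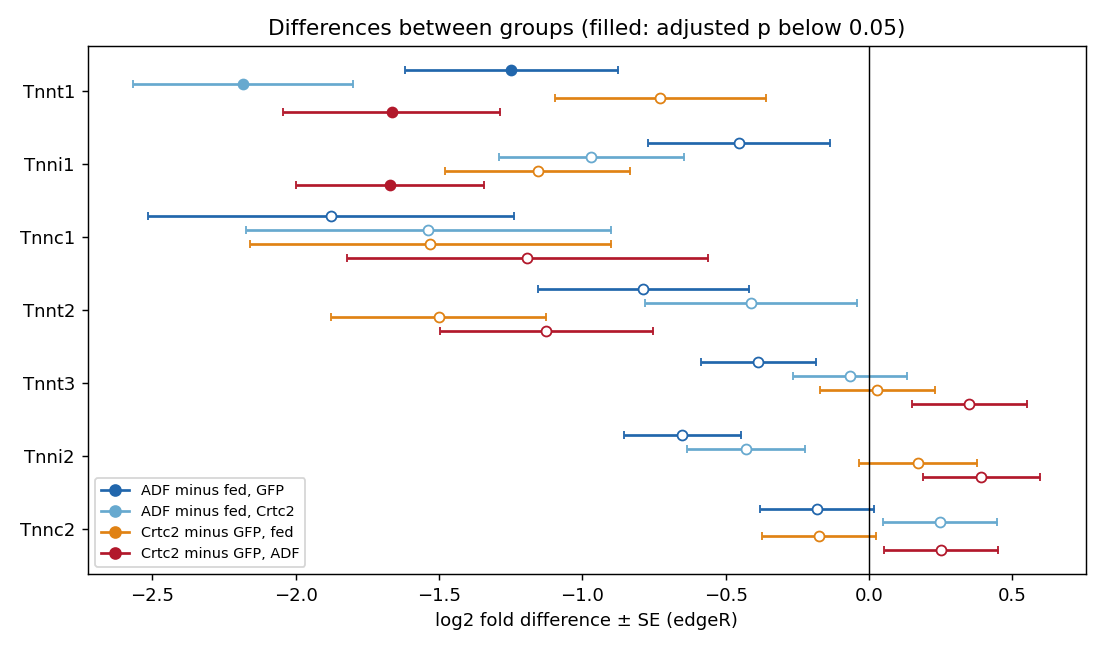
Log2 difference ± SE of each troponin gene in the 4 comparisons of 2 groups, from edgeR, with filled points where the adjusted p was below 0.05. The 3 slow genes and Tnnt2 lie left of 0 in all 4, and the filled points are Tnnt1 in 3 comparisons and Tnni1 in 1.

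Ratios within a library do not depend on how libraries are scaled, and are described here without a test. Tnni2 and Tnnt3, fast troponin I and T of 1 cluster on chromosome 7, kept nearly the same ratio within a group. The log2 of Tnni2 over Tnnt3 per kilobase was -0.93 ± 0.04 in fed GFP, -0.79 ± 0.04 in fed Crtc2, -1.20 ± 0.04 in ADF GFP and -1.15 ± 0.06 in ADF Crtc2 muscle (SD, n = 3 each). The 6 ADF libraries (-1.24 to -1.11) all lay below the 6 fed ones (-0.97 to -0.74), by 1.24-fold on average. The deviations of the pair from their group means correlated at r = 0.989 over the 12 libraries, which share depth and scaling. The next highest among the other pairs were Tnnc2 with Tnnt3 (0.725) and Tnnc2 with Tnni2 (0.701). Among scarce genes the highest was Tnnc1 with Tnnt2 (0.577).

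Tnni1 over Tnni2 was lower in each of the 6 Crtc2 libraries than in any of the 6 GFP libraries, 3.32-fold on average. The log2 ratio was -9.14 ± 0.05 in fed GFP, -8.96 ± 0.55 in ADF GFP, -10.53 ± 0.91 in fed Crtc2 and -11.03 ± 0.43 in ADF Crtc2 muscle. For Tnnt1 over Tnnt3 the ADF Crtc2 group stood alone, at -11.84 ± 0.44, below fed GFP (-9.16 ± 0.87), fed Crtc2 (-9.70 ± 0.83) and ADF GFP (-9.78 ± 0.20), whose values overlapped. Tnnc1 over Tnnc2 ran from -4.49 ± 0.89 in fed GFP to -8.25 ± 2.25 in ADF Crtc2 muscle, with the uncertain Tnnc2 as its base. In these ratios, fed Crtc2 muscle overlapped the GFP groups for T and lay below them for I. Whether slow T and slow I differ in this was not tested.

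**Figure D4:**
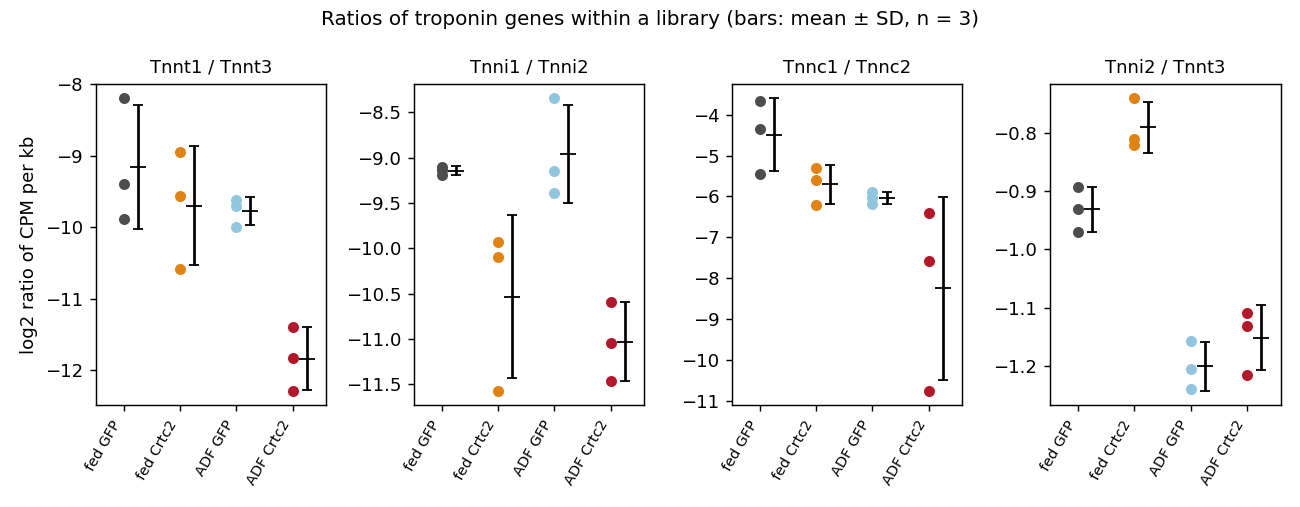
Log2 ratios of troponin genes within a library, in CPM per kilobase of exon (points, 3 libraries a group; bars show mean ± SD; each panel has its own axis). Tnni1 over Tnni2 parts the vectors, Tnni2 over Tnnt3 parts the diets, and Tnnt1 over Tnnt3 is lowest in ADF Crtc2 muscle (-11.84).

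For the gene lists that follow, fasting called 4.06% of all genes higher and 3.06% lower in GFP muscle, and 6.3% and 4.68% in Crtc2 muscle, while Crtc2 called 0% of all genes in fed and 0.725% in ADF muscle. Of 14 other slow fibre genes, 0 were called between vectors in either diet, where few genes of any kind were. In Crtc2 muscle fasting lowered Tpm3 (-1.05 ± 0.32, adjusted p = 0.0359) and raised Smtnl1 (1.01 ± 0.26, 0.0147), a smoothelin-like protein, and Ankrd2 (2.18 ± 0.50, 0.0179), a stretch-responsive sarcomere protein. The median over the 14 was -0.131, and -0.131 over all genes tested. Between vectors under ADF the median of the 14 was -0.19, and -0.01 over all genes tested. Myh7 was at 14.9, 3.40 and 0.356 CPM in ADF Crtc2 and 12.6, 11.5 and 13.1 in ADF GFP muscle (-0.996 ± 0.85, adjusted p = 0.781), so that 1 ADF Crtc2 library lay above the GFP ones. Averaged over vectors fasting called 1 higher, Ankrd2, and 2 lower, Tpm3 and Casq2, the slow and cardiac calsequestrin (-0.69 ± 0.19, adjusted p = 0.0152).

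Of 14 other fast fibre genes, fasting in GFP muscle raised Atp2a1, the fast calcium pump (1.45 ± 0.18, adjusted p = 3.09e-05), and lowered the light chains Mylpf (-0.81 ± 0.19, 0.00945) and Myl1 (-0.58 ± 0.16, 0.0257). In Crtc2 muscle it raised Atp2a1 (1.49 ± 0.18) and Mylk2, the skeletal myosin light chain kinase (0.95 ± 0.24), and lowered Mylpf (-0.64 ± 0.19). The vectors called 0 of these 14. The partners of troponin on the thin filament rose more often than they fell with fasting. Of 16 genes, Tnni3 among them, 5 rose and 1 fell in GFP muscle (median 0.35, and -0.01 over all genes), and 6 rose and 1 fell in Crtc2 muscle (median 0.27, and -0.13 over all genes). Acta1, skeletal actin, rose from 23230 to 49976 CPM in GFP muscle (1.11 ± 0.18, adjusted p = 0.000357) and from 28219 to 57063 in Crtc2 muscle (1.02 ± 0.18, 0.000489). Neb (nebulin, 0.86 ± 0.19 and 1.38 ± 0.19), the capping protein Tmod1 (0.86 ± 0.19 and 1.599 ± 0.20) and the filament nucleator Lmod2 (1.58 ± 0.35 and 1.85 ± 0.35) rose under both vectors. Tmod4 fell in GFP muscle (-0.72 ± 0.17). Tpm1 and Tpm2, the main tropomyosins to which troponin T binds, were not called in any comparison.

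Embryonic and denervation genes were lower in ADF Crtc2 muscle than in fed Crtc2 or ADF GFP muscle where they passed the test. Of 17, fasting in Crtc2 muscle lowered 5 and raised 0 (median -1.10, and -0.13 over all genes). These were Sln, sarcolipin (-2.48 ± 0.29, adjusted p = 6.66e-06), Myl4, the embryonic and atrial light chain (-1.06 ± 0.26, 0.00887), the developmental myosins Myh8 (-0.88 ± 0.23, 0.0157) and Myh3 (-1.83 ± 0.50, 0.035), and the acetylcholine receptor subunit Chrna1 (-1.27 ± 0.39, 0.0426). Fasting in GFP muscle lowered 1, Sln (-0.93 ± 0.28, 0.0424). Crtc2 under ADF lowered 3 and raised 0 (median -1.02, and -0.01 over all genes): Myl4 (-1.41 ± 0.26, adjusted p = 0.0113), the fusion protein Mymk (-2.80 ± 0.56, 0.0156) and Myog, myogenin (-1.83 ± 0.42, 0.0409). Myl4 was at 26.4 to 36.2 CPM in ADF Crtc2 and 55.4 to 112 in ADF GFP muscle. Crtc2 in fed muscle called 0 of the 17.

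Of 26 regulators of fibre type, fasting raised 5 and lowered 0 in GFP muscle and raised 7 and lowered 1 in Crtc2 muscle, while 0 were called between vectors, where 0% and 0.725% of all genes were. Mef2d (1.19 ± 0.17 in GFP, 1.03 ± 0.17 in Crtc2 muscle), Mef2c (1.03 ± 0.24, 0.83 ± 0.24), Tbx15, a factor of fast glycolytic fibres (0.75 ± 0.17, 0.91 ± 0.17), and Ppard, a nuclear receptor of oxidative fibres (1.37 ± 0.33, 1.40 ± 0.33), rose under both vectors. Nfatc2, a calcineurin target, fell in Crtc2 muscle (-1.33 ± 0.36, adjusted p = 0.017).

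**Figure D5:**
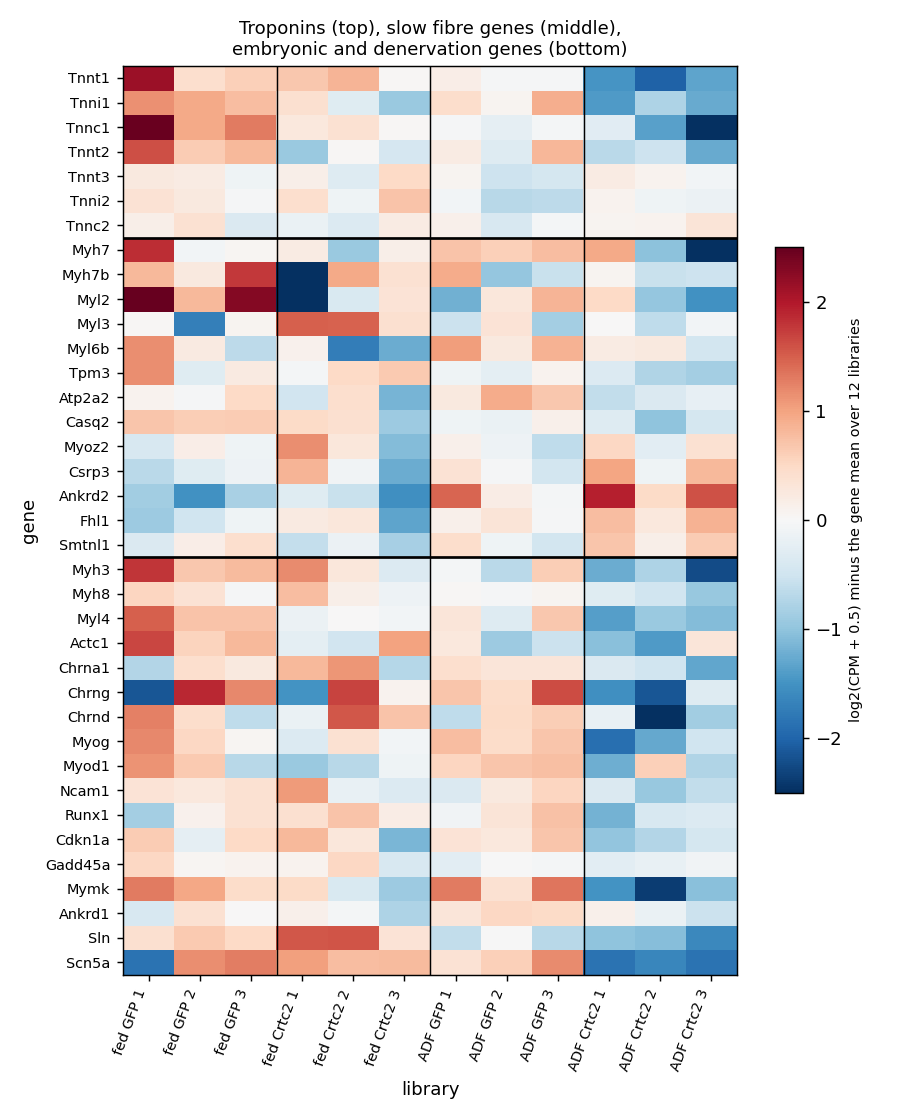
Log2(CPM + 0.5) of each gene minus its mean over 12 libraries, for the troponins (top), 13 other slow fibre genes (middle) and 17 embryonic and denervation genes (bottom); colours saturate at 2.5. The 4 scarce troponins are low in ADF Crtc2 and high in the first fed GFP library. Ankrd2 is higher in each ADF library (166 to 660 CPM) than in any fed one (58.6 to 139 CPM), though not in each ADF library above its mean.

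Some markers of immune cells were lower with Crtc2 under ADF, where Tnni1 and Tnnt1 were lower too; in fed muscle 0 of 8 macrophage and 0 of 5 T cell markers were called. Of 8 macrophage markers, 4 were lower with Crtc2 under ADF: Csf1r (-2.00 ± 0.33, adjusted p = 0.00646), C1qc, Lyz2 and Cd68. The 8 summed to 512 to 813 CPM in ADF GFP and 177 to 274 in ADF Crtc2 muscle, and to 391 to 460 in fed GFP and 215 to 315 in fed Crtc2 muscle, and none was at 0 throughout a group. Of 5 T cell markers 1, Cd3g, was lower with Crtc2 under ADF, at 0 in all 3 ADF Crtc2 libraries, below the floor of 3 counts. The 5 summed to 13.6 to 38.1 CPM in ADF GFP, 0.95 to 3.48 in ADF Crtc2, 18.1 to 56.8 in fed GFP and 3.24 to 39.2 in fed Crtc2 muscle. In bulk muscle, fewer cells of a type and less RNA per cell cannot be told apart. Of 5 satellite cell markers 0 were called between vectors, and they summed to 34.2 to 36.4 CPM in ADF GFP and 26.3 to 40.6 in ADF Crtc2 muscle. Much of that sum was Cdh15, with means of 19.87 CPM in ADF GFP and 25.95 in ADF Crtc2 muscle. The median log2 difference of the 5 between vectors under ADF was -1.67, and -0.01 over all genes tested, so the sum does not show these markers unchanged. Fibroblast markers summed to 1247 to 2622 CPM in ADF GFP and 624 to 960 in ADF Crtc2 muscle, with 0 of 6 called between vectors. Schwann cell markers summed to 28 to 59.5 CPM in ADF GFP and 80.9 to 204 in ADF Crtc2 muscle, with 0 of 5 called. Among smooth muscle markers Acta2 was lower with fasting in GFP (-0.82 ± 0.24, adjusted p = 0.0411) and Crtc2 muscle (-1.12 ± 0.24, 0.00381), and with Crtc2 averaged over diets (-0.83 ± 0.17, 0.024). The endothelial marker Kdr was lower with fasting in Crtc2 muscle (-1.57 ± 0.32, adjusted p = 0.00239), and the fibroblast marker Dcn higher with fasting in GFP muscle (1.32 ± 0.34, 0.0293). Of the satellite cell markers Cdh15 alone was called between diets, higher under ADF in Crtc2 muscle. The part of these cells in the troponin results was not tested.

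Likeness to each troponin gene was taken as Pearson's r of log2 CPM over the 12 libraries, among 11087 genes. Tnnt3 was most like Selenow (r = 0.963), Myoz1 (0.959) and Eno3 (0.944), the last being muscle enolase. Tnni2 was most like the proteasome subunit gene Psmb6 (0.968), Park7 (0.958) and Mrps28 (0.943). For Tnnc2 they were Rps27rt (0.896), Rabac1 (0.877) and Pgm2 (0.872). Myl4 was among the 3 nearest of both Tnnt2 (0.905) and Tnni1 (0.908). Tnni1 was also near Kcnk6 (0.917), and Tnnt2 was nearest to Ubd (0.937) and Psd4 (0.892), with Myl4 between them. Tnnt1 was nearest to Slc22a17 (0.951), Taf1d (0.936) and Cog3 (0.934), and Tnnc1 to Rasa3 (0.935), Nr6a1 (0.933) and Tctn1 (0.926). All genes named here for the 4 scarce troponins but Myl4 were at mean levels of only 2.41 to 18.9 CPM. The libraries share depth and group, so these values are descriptions.

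Genes beside the troponins showed their own patterns. Lsp1, a leukocyte actin-binding protein gene between Tnni2 and Tnnt3, was at 25.1 to 38.2 CPM in ADF Crtc2 and 49.6 to 112 in fed Crtc2 muscle (-1.30 ± 0.27, adjusted p = 0.00279). In GFP muscle its difference was -0.64 ± 0.27 (adjusted p = 0.18). Lad1, between Tnni1 and Tnnt2, was at 0 in 10 of the 12 libraries and at most at 0.407 CPM. Ube2c, which overlaps Tnnc2, was lower under ADF averaged over vectors (-2.89 ± 0.74, adjusted p = 0.0112), at 0 to 3.98 CPM against 7.72 to 29.1, while Tnnc2 differed by 0.03 ± 0.14 (adjusted p = 0.921). Nisch, on the opposite strand from Tnnc1 with 0 shared exon bases, was at 71.5 to 89.4 CPM under ADF and 105 to 148 when fed (-0.57 ± 0.13 averaged over vectors, adjusted p = 0.00443).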

How the data were processed

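RNA of 12 tibialis anterior libraries was sequenced, 4 groups of 3. The authors deposited 1 table of whole-number read counts, not normalized, for 22607 genes; 0 of its columns belonged to no sample. Per the submitters' processing notes the tools included Subread 1.6.1 (featureCounts), DESeq2 1.18.1, SAMtools 1.7 and HISAT2 2.0.5. Their roles, the annotation and the strand setting are not given in the sources used here. The labels' protocols name an NEBNext Ultra II directional kit and a TruSeq Stranded mRNA preparation without assigning them to libraries, so a preparation that followed the groups cannot be told apart from them.

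Counts were fitted with edgeR 4.0.16 in R 4.3.3: TMM scaling, filterByExpr over the 4 groups (16007 genes), a robust quasi-likelihood fit of group means over all 12 libraries, and Benjamini-Hochberg adjustment over all genes tested (threshold 0.05), for 7 comparisons. All adjusted p-values are two-sided and from this fit unless another tool is named. The interaction subtracts the fed log2 difference between vectors from the ADF one. With 3 against 3 libraries an exact test could not go below 0.1. A lack of overlap between 2 groups is thus weak evidence for any gene named here, and the share of all genes without overlap is not given. The fit was tried on simulated data for ADF against fed in GFP muscle (16007 genes). It called 14% of 100 genes changed 2-fold and 44% of 100 changed 4-fold, with 4 false calls among 62. Many changes of this size were thus missed in that setting. Only these genes were changed, drawn at random from all genes tested, whereas the data called 7.12% of all genes in this comparison. The shares may therefore differ for the data and for genes as abundant as Tnnt3 and Tnni2. Levels are CPM with TMM-scaled library sizes, and lengths are the union of GENCODE release 21 exons, found for 22582 genes. Within groups no library was a duplicate of another. Floors of 3 counts cover counting error only, and take counts as independent reads. Most small counts were even numbers, so this may not hold, and the floors would then be higher. Promoters are from the RefSeq table on GRCm38.p6. A comparison of the proteins was not run.

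The members, gene lists and rules were chosen with earlier results of these data known. Named are the 7 genes, Tnni3, Crtc2, the 3 genes most correlated with each member (mean of at least 2 CPM, no predicted names), members of the lists past the threshold (up to 4 a direction) or else those with the smallest p, and genes overlapping or between troponin genes; 2 genes that this rule names are not reported here. Alternatives were other scalings and filters, DESeq2 1.42.0, a replicate block, removal of a length trend, fits of 2 groups alone, leaving out each library, and other gene lengths.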

Additional observations from a re-analysis of the deposited data

How the results depend on the processing

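The count of the 7 troponin genes called was 1 for ADF against fed in GFP muscle. It was 2 with DESeq2's size factors, 3 with library totals, 3 without a filter, 3 with a filter at a mean of 10 CPM, 3 with DESeq2's Wald test, and 0 with a length trend removed. With the 2 groups fitted alone it was 1, but the gene was Tnnc1 (adjusted p = 0.0263), and Tnnt1 had 0.0963. Tnnc1 was also among those called without a filter (0.00373), with the 10 CPM filter (0.0494) and with DESeq2 (0.042). In Crtc2 muscle it was 1, and 3 with library totals, 3 without a filter, 2 with the 10 CPM filter and 2 with DESeq2. Crtc2 against GFP in fed muscle went from 0 to 1 without a filter (Tnnt2, adjusted p = 0.0113), and under ADF from 2 to 1 with the length trend removed. Leaving out 1 library, the counts ran from 0 to 2 and 1 to 2 for fasting in GFP and Crtc2 muscle, 0 to 2 for Crtc2 under ADF, 1 to 3 for Crtc2 averaged over diets, and 3 to 4 for fasting averaged over vectors. Over all genes, DESeq2 called 556 genes against 116 for Crtc2 under ADF and 364 against 79 averaged over diets, and without a filter edgeR called 385 and 344, 58 for Crtc2 in fed muscle and 67 for the interaction. Fits of 2 groups alone gave 7 and 300 for Crtc2 in fed and ADF muscle.

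Directions turned for the following values. With library totals Tnnc2 was at -0.0243 for fasting in Crtc2 muscle, -0.15 for fasting averaged and -0.0629 for Crtc2 averaged, and Tnnt3 at -0.0016 for Crtc2 in fed muscle. This scaling moved the median of all genes for fasting in Crtc2 muscle from -0.131 to -0.425. With the length trend removed Tnnc2 was at 0.0688 for fasting in GFP muscle and -0.0324 for Crtc2 averaged, and Tnnt3 at 0.00584 for fasting in Crtc2 muscle. Fasting averaged gave Tnnc2 -0.0033 with DESeq2's size factors, -0.0033 with DESeq2's test and -0.068 with the 10 CPM filter. Leaving out 1 library, Tnnc2 ran from -0.0563 to 0.118 for fasting averaged and -0.0517 to 0.121 for Crtc2 averaged, Tnnt3 from -0.25 to 0.15 for fasting in Crtc2 muscle and -0.19 to 0.22 for Crtc2 in fed muscle, Tnni2 from -0.0300 to 0.366 and Tnnt1 from -1.02 to 0.0454 (without the first fed GFP library) for the latter, and the Tnnc1 interaction from -0.66 to 0.87. The cause of these turns was not tested.

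Replicate numbers are shared between groups, but only 1 of 18 same-numbered pairs of libraries had deviations correlated over 0.1 (range -0.123 to 0.314, over 7789 genes), so they were not taken as pairs. With a replicate block the troponin counts were 1, 1, 0 and 2 in the 4 comparisons of 2 groups, 0 for the interaction, and 3 averaged over vectors and 3 averaged over diets. In GFP muscle the called gene became Tnni2 (adjusted p = 0.042, Tnnt1 0.0634), Tnni1 averaged over vectors had 0.0606, and the Tnnc1 interaction was -0.19.

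Levels per length depend on the length chosen, differences between groups do not. With the median length of coding transcripts, chosen after seeing the data, the mean slow share was 0.304% of T and 0.274% of I (0.139 and 0.128 with exon unions), and the mean log2 ratios were -8.82 for Tnni1 over Tnni2, -0.51 for Tnni2 over Tnnt3 and -5.21 for Tnnc2 over Tnnt3. Without length scaling the shares were 0.266% and 0.307%. With the Tnnc2 length unshared with Ube2c, also chosen after seeing the data, Tnnc1 over Tnnc2 was -8.07 and Tnnc2 over Tnnt3 -2.81. Counts of 14 to 372 for Tnnc1 under ADF limit its precision.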
